A study of Mus musculus with 2 samples.

Results

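Transcripts of 10 serotonin receptor genes were measured in brainstem nuclei, out of 25556 genes in the count matrix. The genes were *Htr1a*, *Htr1b*, *Htr1d*, *Htr1f*, *Htr2a*, *Htr2c*, *Htr3a*, *Htr4*, *Htr5a* and *Htr7*, chosen by name from the receptor family, and every one of them had counts in both libraries. Single nuclei came from the dissected, flash-frozen brainstem of 1 WT mouse and 1 HET mouse, both female, untreated and at postnatal day 41 on a C57Bl6 background. HETs carry one *Scn1a* allele with the A1783V missense change (*Scn1a* A1783V/WT), a global knock-in obtained by crossing floxed males with *Sox2-Cre* females, and the WT mouse carries no such change in *Scn1a*, the gene for a voltage-gated sodium channel. The comparison asked how the brainstem transcriptome of surviving HETs differs from WTs. With 1 library per genotype there is no replicate check and no test between genotypes.

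Serotonin is made by the raphe neurons of the brainstem, which project to most of the brain and spinal cord and act on breathing, arousal and motor output. All of its receptors are G protein-coupled except those built from *Htr3a*, which form a cation channel. The products of the *Htr1* genes and *Htr5a* couple to inhibitory G proteins, those of *Htr2a* and *Htr2c* couple to Gq and raise intracellular calcium, and those of *Htr4* and *Htr7* couple to Gs and raise cyclic AMP. On serotonin neurons themselves, the receptors from *Htr1a*, *Htr1b* and *Htr1d* act as autoreceptors that limit firing or release.

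The WT library held 9259 nuclei and the HET library 9022, with a median of 5456 and 5646 unique molecular identifiers (UMIs) per nucleus, and 23 cell barcodes occurred in both. UMIs were summed over nuclei and are given per 1000000 UMIs of the same nuclei (CPM). A change is the log2 of the HET CPM divided by the WT CPM, negative where the HET library is lower. All intervals are at 95% and cover counting error only. *Scn1a* itself had 380 CPM in the WT and 420 CPM in the HET library (log2 ratio 0.15, interval 0.12 to 0.17), and since a missense allele is transcribed, this level does not check the genotype labels. The deposited annotation has 16 clusters, 9 of them neuronal, and 34 subclusters. Neuronal clusters held 66.1% of the WT and 59.8% of the HET nuclei, and 5 clusters (neuron.5, neuron.6, neuron.8, neuron.9 and epend.2) came mostly from 1 library. Summed choroid plexus markers, for example, stood at 430 CPM in the WT and 84.6 CPM in the HET library, with none of the 4 markers at 0. From a bulk sum of this kind alone, fewer cells of a type and less RNA per cell cannot be told apart, and a cluster drawn from 1 library cannot be told apart from that library. The choroid plexus cluster epend.2 held 108 WT and 6 HET nuclei, in which the same markers summed to 18033 and 10816 CPM.

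Because the autoreceptor genes led in one small cluster, the bases just before their starts are shown, with *Htr2c*, led by another cluster, for contrast. They are RefSeq sequences of build GRCm38.p6, written 5′ to 3′ on the strand of the gene. Capitals mark CGGAAG, the ETS-type core that factors of the Fev family (Fev is the factor that sets serotonin neuron identity) can bind, searched on both strands after the receptor levels were known. The window for *Htr1a* (chr13:105443443-105443638, plus strand), an autoreceptor of the cell body, stops at 196 bases where the annotated transcript begins. Those for *Htr1b* (chr9:81633833-81634082, minus strand) and *Htr1d* (chr4:136423274-136423523, plus strand), autoreceptors of the terminals, and for *Htr2c* (chrX:146962263-146962512, plus strand) hold 250 bases.
Htr1a: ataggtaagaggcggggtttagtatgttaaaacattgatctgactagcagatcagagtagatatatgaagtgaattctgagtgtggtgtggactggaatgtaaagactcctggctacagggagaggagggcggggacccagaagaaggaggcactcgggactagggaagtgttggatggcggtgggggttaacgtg
Htr1b: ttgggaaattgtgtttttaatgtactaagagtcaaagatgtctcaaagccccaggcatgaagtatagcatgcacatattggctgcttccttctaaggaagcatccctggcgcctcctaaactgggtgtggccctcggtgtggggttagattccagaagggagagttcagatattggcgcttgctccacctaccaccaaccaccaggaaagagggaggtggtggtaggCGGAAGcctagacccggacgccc
Htr1d: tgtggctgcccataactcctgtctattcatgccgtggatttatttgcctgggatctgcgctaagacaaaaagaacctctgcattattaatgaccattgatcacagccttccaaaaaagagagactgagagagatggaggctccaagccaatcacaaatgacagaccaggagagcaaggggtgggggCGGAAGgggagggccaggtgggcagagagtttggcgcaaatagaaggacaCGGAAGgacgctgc
Htr2c: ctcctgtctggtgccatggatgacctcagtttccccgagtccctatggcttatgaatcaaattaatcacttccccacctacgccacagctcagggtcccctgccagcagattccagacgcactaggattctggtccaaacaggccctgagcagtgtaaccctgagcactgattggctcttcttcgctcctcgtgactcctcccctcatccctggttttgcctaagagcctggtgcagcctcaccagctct

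The motif began 23 bases before the start of *Htr1b*, and 64 and 14 bases before the start of *Htr1d*. It was not in the windows of *Htr1a*, *Htr1f*, *Htr2a*, *Htr2c*, *Htr5a* or *Htr7*, nor in a second annotated window of *Htr1d*, so that 2 of the 8 receptors with a RefSeq window held it. Among all 32851 promoter windows of 250 bases, 4466 (13.6%) held it on either strand. A match of 6 bases describes the letters only, and no binding was measured.

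The 3 autoreceptor genes were highest in neuron.7, which is the serotonergic cluster by its markers. Its 79 nuclei, 46 WT and 33 HET, held *Tph2*, the gene of the enzyme that makes serotonin in neurons, in 98.7% of nuclei, and *Slc6a4*, the serotonin transporter, in 97.5%. The 4 serotonergic markers summed to 2334 CPM in its WT and 3172 CPM in its HET nuclei, none of them at 0 and only *Tph2* higher in the HET nuclei, while all 3 catecholaminergic markers were at 0. Since the clusters were made from the same counts, the receptors' levels in neuron.7 against other neurons are a description, with no test.

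*Htr1a* (chr13:105443639-105448122, GRCm38), the somatodendritic autoreceptor, had 6 WT and 5 HET UMIs in neuron.7, or 11.8 and 12.9 CPM. Pooled, this was 12.3 CPM (interval 6.13 to 22.0), 6.59-fold the level of all other neurons (3.24 to 12.04). With so few UMIs the log2 ratio of 0.12 had an interval of −1.93 to 2.10, so that only a large difference between libraries could have been seen. In neuron.7, 13.9% of nuclei held a UMI of *Htr1a* (7.16 to 23.5), at a median depth of 11527 UMIs. Elsewhere the gene was sparse, and a single UMI put neuron.9 at 10.8 CPM (0.273 to 60.1).

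*Htr1b* (chr9:81628291-81633828), the autoreceptor that limits serotonin release at terminals and a heteroreceptor on other axons, had the most UMIs of the 3 there. It had 36 WT and 44 HET UMIs in neuron.7, or 70.9 CPM (49.7 to 98.2) and 113 CPM (82.4 to 152). The pooled level of 89.3 CPM was 11.5-fold that of other neurons at 7.75 CPM (fold interval 9.05 to 14.5), and the fold was 9.45 within the WT and 14.1 within the HET library. The HET value was higher by a log2 ratio of 0.68, with a counting interval of 0.01 to 1.35 that nearly reaches 0, and *Htr1b* was found in 20 of 46 WT and 24 of 33 HET nuclei. Without the single richest nucleus of each library the ratio was 0.67 (−0.04 to 1.39). The non-coding gene *D430036J16Rik* overlaps *Htr1b* on the opposite strand, and whether the counting used strand is not given in the sources used here, so reads of the pair cannot be told apart.

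*Htr1d* (chr4:136423524-136444398), a terminal autoreceptor and trigeminal receptor, followed the same placement. It had 12 WT and 23 HET UMIs in neuron.7, or 23.6 CPM (12.2 to 41.3) and 59.3 CPM (37.6 to 88.9). These levels gave a log2 ratio of 1.33 (0.26 to 2.47), and 1.44 (0.22 to 2.76) without the richest nucleus of each library. Pooled over both libraries, 39.1 CPM stood 14.5-fold over other neurons (9.94 to 20.7), and the fold was 7.63 within the WT and 26.6 within the HET library. *Htr1d* was found in 10 of 46 WT and 14 of 33 HET nuclei. Both *Htr1b* and *Htr1d* were seen in 16 nuclei, and at least one of the 3 autoreceptor genes in 56 of 79.

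**Figure D1:**
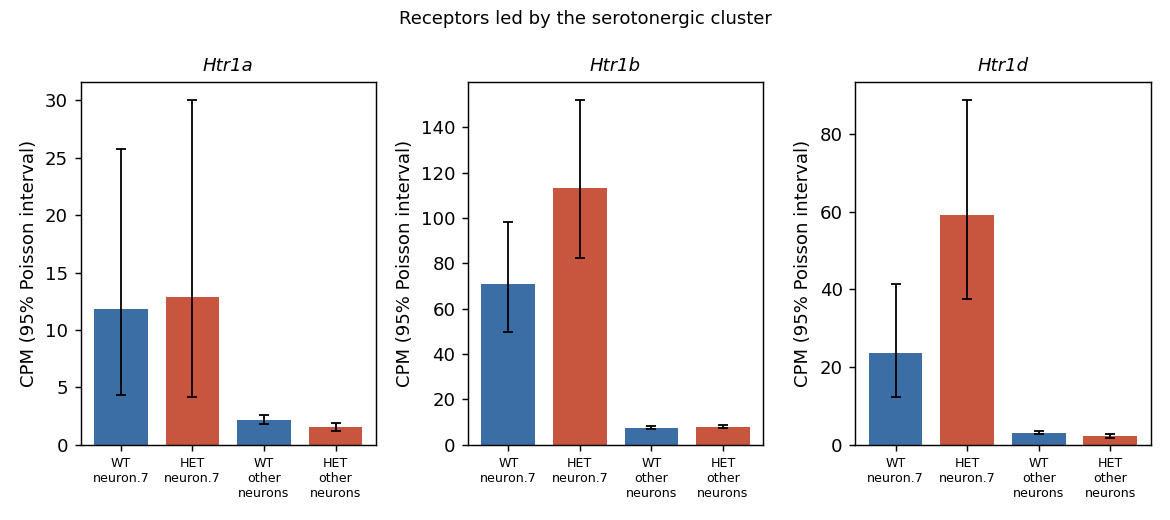
CPM of *Htr1a*, *Htr1b* and *Htr1d* (y axis, one panel per gene with its own scale) in the serotonergic cluster neuron.7 and in all other neuronal nuclei of the WT (blue) and HET (red) library. Bars start at 0 and error bars are exact Poisson 95% intervals; neuron.7 stands above the other neurons in each library, by 11.5-fold for *Htr1b* and 14.5-fold for *Htr1d* over both.

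The size of the difference between libraries in neuron.7 depended on which nuclei were counted as serotonergic. Of the 4 receptors with at least 20 UMIs there, *Htr1b*, *Htr1d* and *Htr2c* were at least 1.5-fold higher in the HET nuclei, against 10.5% of all 6940 genes tested, and none was at least 1.5-fold lower, against 19.6%. For *Htr2c* the ratio of 0.61 (0.06 to 1.16) was 0.45 (−0.18 to 1.08) without the richest nucleus of each library. When nuclei were taken instead by serotonergic marker UMIs (51 WT and 47 HET nuclei, a class added after the data were seen), *Htr1b* stood at 65.9 CPM in the WT and 65.4 CPM in the HET library. On this choice its log2 ratio was −0.01, on 36 WT and 40 HET UMIs against 36 and 44 in neuron.7. The class took nuclei with at least 5 summed marker UMIs, and 78 of its nuclei lay in neuron.7. Its 51 WT and 47 HET nuclei stand against 46 WT and 33 HET nuclei in neuron.7. Its marker *Slc18a2* had only 15.9% of its UMIs in neuron.7, so the added nuclei are not shown to be serotonergic. *Htr1d* stayed higher in the HET library, at 22.0 and 39.2 CPM, with a ratio of 0.84 whose interval of −0.22 to 1.97 includes 0. In the same nuclei *Htr2c* went from 98.8 to 475 CPM, and 19 of these nuclei belonged to neuron.1, where *Htr2c* is abundant. *Tph2* also differed within neuron.7, with 847 CPM in the WT and 1889 CPM in the HET nuclei. The other 3 serotonergic markers had lower HET values with intervals of the ratio that include 0, at 753 and 652 CPM for *Slc6a4* (−0.21), 705 and 618 CPM for *Slc18a2* (−0.19), and 29.5 and 12.9 CPM for *Fev* (−1.20, on 20 UMIs).

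Of the other receptors, *Htr1f* stood at 0.582 of its level in other neurons and *Htr2c* at 0.184. *Htr2a* was seen there with 4 UMIs, *Htr4* with 5 and *Htr7* with 10. *Htr5a* had 5 UMIs, or 5.58 CPM, 2.02-fold its level in other neurons with an interval of 0.652 to 4.77 that includes equal levels. *Htr3a* had no UMI in the 79 nuclei, which allows a share of up to 3.80% of nuclei with one.

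In neurons outside neuron.7, the 3 autoreceptor genes were sparse, at pooled 1.86 CPM for *Htr1a*, 7.75 for *Htr1b* and 2.69 for *Htr1d*. The sums and shares that follow include neuron.7, which held 4.31%, 7.84% and 9.92% of their UMIs. Summed over all nuclei, *Htr1b* had 507 WT and 514 HET UMIs (log2 ratio 0.11, −0.07 to 0.29), and *Htr1d* had 202 and 151 (−0.33, −0.65 to −0.02). For *Htr1a* the sums were 150 and 105 UMIs (−0.43, −0.80 to −0.06). Short genes as a group were also lower, with a median of −0.30 in the decile of gene length that holds *Htr1a* and *Htr1b*. Set against their own length decile, *Htr1a* was at −0.13, *Htr1d* at −0.17 and *Htr1b* at 0.41. Over all neuronal clusters *Htr1a* had 134 WT and 85 HET UMIs, or 2.26 and 1.60 CPM. Thinned to 1000 UMIs per nucleus, 0.222% of neuronal nuclei held a UMI of *Htr1a* (0.144 to 0.326), against 0.178% (0.0862 to 0.325) of non-neuronal nuclei with 2 matching deposited labels. These shares, of which the neuronal one includes neuron.7, do not stand apart. A neuronal level of *Htr1a* outside neuron.7 could thus not be told from background. By CPM the non-neuronal level was 78.2% of the neuronal one, against 78.7% for *Slc32a1*, a neuronal marker. Before thinning the shares were 1.81% and 0.488%, at median depths of 8055 and 2835 UMIs. *Htr1b* and *Htr1d* were above that background, at 0.778% against 0.335% and 0.292% against 0.0357% after thinning (6.48% against 0.976% and 2.47% against 0.105% before).

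In neuron.1, the large mixed cluster that held 65.2% of all UMIs, *Htr1b* had 7.85 CPM in the WT and 8.93 CPM in the HET library (log2 ratio 0.19, −0.03 to 0.40). *Htr1d* went from 3.58 to 2.71 CPM there (−0.40, −0.76 to −0.05), a direction opposite to that in neuron.7. After neuron.7, neuron.2 held the highest pooled *Htr1b* level among neuronal clusters, with 11.1 CPM in the WT and 18.1 CPM in the HET library (0.71, 0.01 to 1.39). Without the richest nucleus of each library this ratio was 0.66 (−0.06 to 1.37). The cluster neuron.2 carried mainly glutamatergic markers, at 173 CPM against 40.9 CPM for GABAergic ones. Its subcluster 14 reached 16.6 and 24.2 CPM of *Htr1b*.

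*Htr1f* (chr16:64924729-65105854), the last member of the inhibitory group and the target of a class of migraine drugs, was widespread and lower in the HET library nearly everywhere. It had 10631 WT and 6875 HET UMIs, or 151 and 104 CPM, with a log2 ratio of −0.54 (−0.59 to −0.50). Among neuronal clusters the values were 169 and 119 CPM (−0.50, −0.54 to −0.45). The HET value was lower in 11 of the 12 clusters compared (at least 30 nuclei per library), in 8 of them with an interval below 0, and in all 7 subclusters of neuron.1, where ratios ran from −0.87 to −0.27. Over all genes with at least 200 UMIs the median log2 ratio was −0.10, and over those in the longest decile of gene length, to which *Htr1f* belongs, it was 0.12.

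By cluster, neuron.1 went from 181 to 134 CPM of *Htr1f* and neuron.3 from 165 to 112 CPM. A larger ratio was seen in neuron.2, from 83.7 to 48.9 CPM (−0.78, −1.12 to −0.44), and in neuron.4, from 87.4 to 52.3 CPM (−0.74, −1.02 to −0.46). The cluster endo went the other way, from 28.1 to 30.6 CPM on 29 UMIs (0.12, −1.15 to 1.30), although the HET value was lower both among its nuclei whose second label is endothelial (17.7 and 14.5 CPM) and among the rest (59.9 and 42.3 CPM). The share of neuronal nuclei with an *Htr1f* UMI was 60.5% for WT and 49.1% for HET, and 14.4% and 10.0% after thinning.

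The highest *Htr1f* level was in neuron.8, the cholinergic cluster, whose 3 cholinergic markers summed to 409 CPM. It held 253 CPM in 44 WT nuclei and 268 CPM in only 9 HET nuclei, and 98.1% of its nuclei had a UMI. *Htr1f* was also found in glial clusters, at 59.4 and 41.0 CPM in oligo and 51.1 and 33.8 CPM in astro. In the cluster micro, *Htr1f* went from 92.3 to 51.5 CPM (−0.84, −1.30 to −0.39), and the 4 neuronal markers summed there to 8895 CPM in the WT and 9801 CPM in the HET library, against 1278 and 1637 CPM in astro. The part of neuronal RNA in the glial *Htr1f* levels was not tested. Non-neuronal nuclei with matching labels held *Htr1f* at 31.3% of the neuronal level, against 10.7% for *Rbfox3*, 53.6% for *Slc17a6* and 78.7% for *Slc32a1*, which are neuronal markers.

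**Figure D2:**
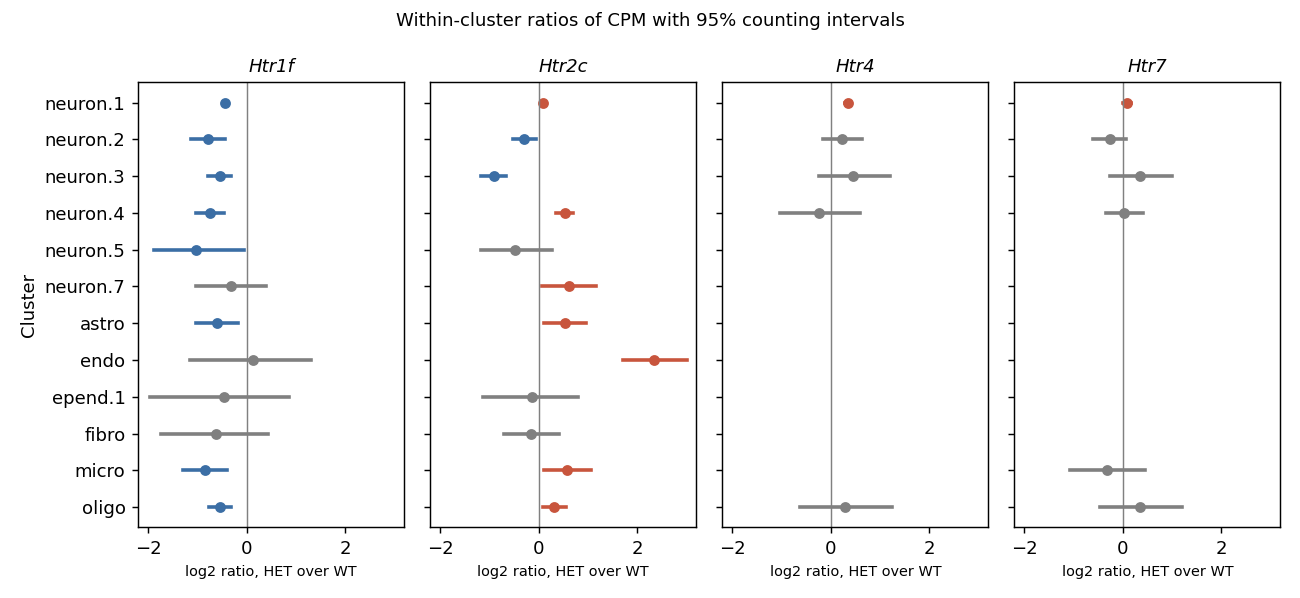
Log2 ratio of CPM, HET over WT (x axis), by cluster (y axis) for *Htr1f*, *Htr2c*, *Htr4* and *Htr7* where a cluster held at least 20 UMIs. Bars are counting intervals at 95%, blue where they lie below 0, red above 0 and grey across 0; *Htr1f* lies left of 0 in 11 of its 12 clusters, whereas *Htr2c* runs from −0.91 in neuron.3 to 2.35 in endo.

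*Htr5a* (chr5:27842149-27855088), an inhibitory receptor known from forebrain and cerebellar neurons, was sparse. It had 148 WT and 189 HET UMIs, or 2.11 and 2.86 CPM (log2 ratio 0.44, 0.12 to 0.76). In neuron.1 the levels were 2.40 and 3.32 CPM (0.47, 0.10 to 0.84). The highest pooled level was 6.97 CPM (3.34 to 12.8) in neuron.5, the cluster with cerebellar granule cell markers at 626 CPM, and it rested on 10 UMIs. That cluster had 42 WT and 332 HET nuclei.

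The Gq-coupled receptor gene *Htr2a* (chr14:74640840-74709494), whose product excites cortical and motor neurons, had 870 WT and 784 HET UMIs. These gave 12.4 and 11.8 CPM, and the ratio of −0.06 had an interval of −0.20 to 0.08. *Htr2a* had its highest pooled CPM in a pair of clusters drawn mostly from the WT library. Most of its UMIs (73.5%) lay in neuron.1, and the pair held 6.65% and 4.53%. The first was neuron.6, at 64.6 CPM in 120 WT nuclei, where 4 inferior olive markers summed to 2604 CPM. The second was cholinergic neuron.8, at 46.1 CPM in 44 WT and 62.8 CPM in 9 HET nuclei. A UMI of *Htr2a* was present in 48.0% of the nuclei of neuron.6 and 64.2% of those of neuron.8, against 9.26% of all neuronal nuclei and 0.924% of non-neuronal ones (5.81%, 4.23%, 1.23% and 0.346% after thinning).

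Nuclei with strict cholinergic markers (63 WT and 38 HET) had 41.3 CPM of *Htr2a* in the WT and 39.3 CPM in the HET library. Of these nuclei 57 lay in neuron.1 and 44 in neuron.8, so the class overlaps the cluster just described. Its levels rested on 64 and 25 UMIs and had overlapping intervals, and the whole of neuron.8 held 60 and 15 UMIs. Elsewhere *Htr2a* was higher in the HET nuclei of neuron.4, where glutamatergic markers led, from 10.4 to 19.5 CPM (0.91, 0.22 to 1.66). In neuron.3 it rested on 2 WT and 21 HET UMIs, 1.21 and 5.92 CPM. In neuron.1 the libraries had 13.0 and 14.4 CPM (0.15, −0.02 to 0.31). Without neuron.6 and neuron.8, a choice made after the data were seen, the ratio over all nuclei turned from −0.06 to 0.16.

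*Htr2c* (chrX:146962513-147197277), the other Gq-coupled receptor, known for its edited transcripts and its density in the choroid plexus, had the highest level per gene length of all 10. Per kilobase of gene, pooled neuronal levels were 3.01 CPM for *Htr2c*, 1.52 for *Htr1b*, 0.802 for *Htr1f*, 0.530 for *Htr7*, 0.434 for *Htr1a* and 0.398 for *Htr4*. The remaining 4 receptors ran from 0.215 for *Htr5a* to 0.0359 for *Htr3a*. The choice of gene length as the scale treats introns as counted, which nuclear RNA favours, but whether they were counted is not given in the sources used here. Without this scale, pooled neuronal levels were 707 CPM for *Htr2c*, 145 for *Htr1f*, 68.5 for *Htr4* and 52.4 for *Htr7*. They were 14.1 CPM for *Htr2a*, 8.40 for *Htr1b* and 1.95 for *Htr1a*. Inside the *Htr2c* locus, 8 annotated small RNA genes lie on the same strand, most of them miRNAs.

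Over all nuclei *Htr2c* had 46155 WT and 39120 HET UMIs, 657 and 591 CPM (log2 ratio −0.15, −0.17 to −0.13). The highest level was in epend.2, the choroid plexus cluster. There *Htr2c* stood at 10279 CPM in 108 WT nuclei and 14421 CPM in only 6 HET nuclei, and 95.6% of the nuclei had a UMI. Without epend.2, again a later choice, the ratio was −0.04. Neuronal clusters gave 701 and 713 CPM (0.02, 0.00 to 0.04).

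Within neurons *Htr2c* was centred on neuron.1, at 826 CPM in the WT and 883 CPM in the HET library (0.09, 0.07 to 0.12). A UMI was present in 75.3% of its nuclei, and the 12.6% of nuclei with at least 20 UMIs of *Htr2c* held 52.5% of the gene's UMIs in that cluster, the richest with 227. Subclusters 5 and 3 led, with 992 and 915 CPM in the WT and 1020 and 903 CPM in the HET library. Over all neuronal nuclei, 67.3% had a UMI, against 13.8% of non-neuronal nuclei (35.4% and 4.86% after thinning). The next neuronal levels, neuron.4 and neuron.8, had pooled 237 CPM (226 to 249) and 236 CPM (213 to 262), which do not differ beyond counting error.

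Cluster by cluster, *Htr2c* was higher in the HET library in 7 and lower in 5 of 12. The lowest ratio was in neuron.3, from 150 to 79.7 CPM (−0.91, −1.16 to −0.66), and −0.80 without the richest nucleus of each library. In that cluster *Slc6a5*, the glycine transporter gene, stood at 217 CPM in the WT and 142 CPM in the HET nuclei. In neuron.4 *Htr2c* went from 180 to 260 CPM (0.53, 0.36 to 0.70). In endo it went from 44.4 CPM to 226 CPM (2.35, 1.72 to 3.01), and 33 of the 74 HET UMIs came from 1 nucleus. Without the richest nucleus of each library the endo ratio was 1.65 (0.92 to 2.39). The neuronal markers in endo summed to 1422 CPM in the WT and 3203 CPM in the HET library. Among the endo nuclei whose second label is also endothelial, *Htr2c* had 35.4 and 65.2 CPM (0.88, −0.45 to 2.11).

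**Figure D3:**
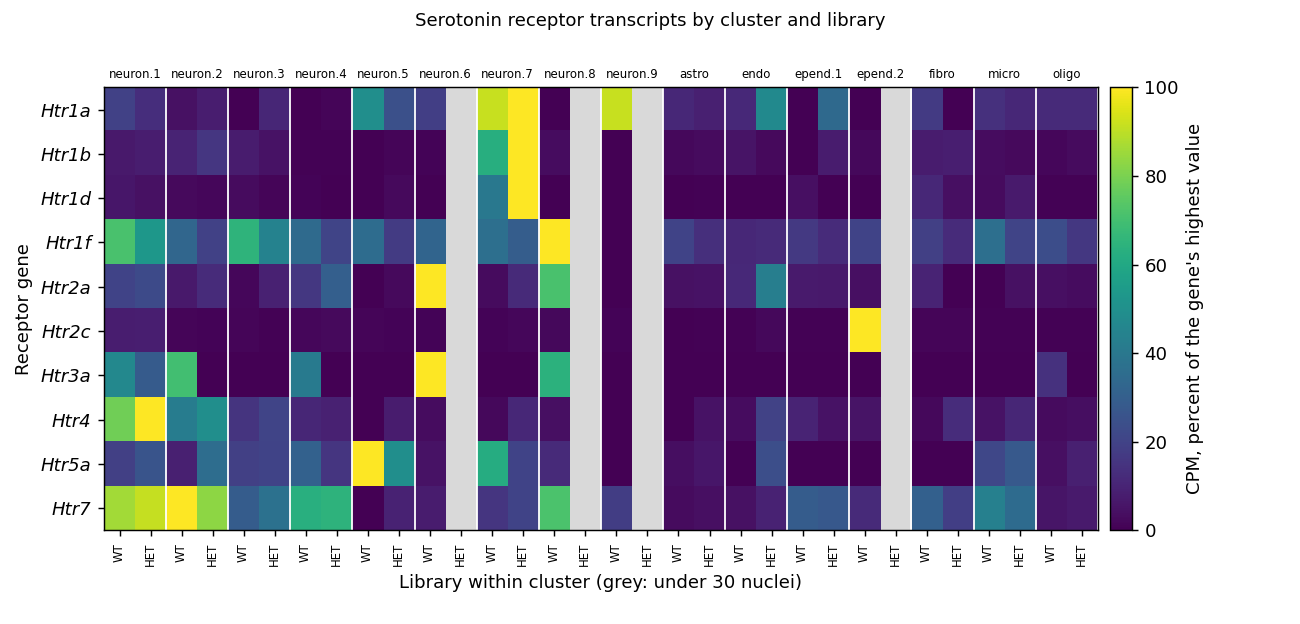
Level of each receptor (rows) in each cluster and library (columns), as a percentage of the gene's highest CPM, with grey where a library had under 30 nuclei in the cluster. *Htr1a*, *Htr1b* and *Htr1d* peak in neuron.7, *Htr2a* in neuron.6, *Htr2c* in epend.2, and *Htr1f* in neuron.8; *Htr1a* in neuron.9 and *Htr3a* outside neuron.1 rest on 1 to 3 UMIs.

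*Htr3a* (chr9:48899213-48911099), the channel subunit gene of interneurons and vagal sensory neurons, was at the limit of these libraries. It had 35 WT and 14 HET UMIs, or 0.498 and 0.212 CPM (−1.23, −2.24 to −0.30). It was the only one of the 10 receptors at least 1.5-fold lower in the HET library over all nuclei, against 15.3% of all genes with at least 20 UMIs. None was at least 1.5-fold higher, against 10.9% of all genes. Over neuronal clusters the counts were the same, against 14.3% lower and 11.2% higher. Within the 12 clusters compared, 14.2% to 28.7% of genes with at least 20 UMIs were lower by that fold and 6.96% to 22.0% were higher, which is the scale for the single cluster ratios given here. In neuron.1 *Htr3a* had 27 and 14 UMIs, with a ratio of −0.70 and an interval of −1.74 to 0.28. Its UMIs gathered in subcluster 9 of neuron.1, with 10 WT and 8 HET UMIs, at 2.84 and 2.86 CPM.

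Of the Gs-coupled receptors, *Htr4*, whose product raises cyclic AMP and excites neurons of the respiratory network, was the one that was higher in the HET library. It had 3745 WT and 4066 HET UMIs, 53.3 and 61.4 CPM (0.21, 0.14 to 0.27). Neuronal clusters gave 62.6 and 75.1 CPM (0.26, 0.20 to 0.33). The ratio over all nuclei was 0.39 with equal cluster weights in both libraries, and 0.09 relative to genes in the same length decile. In neuron.1 it went from 72.9 to 93.1 CPM (0.35, 0.29 to 0.42), and all 7 subclusters of neuron.1 were higher in the HET library, by ratios of 0.02 to 0.64, in 5 of them with an interval above 0. Subcluster 10 had the largest of these, from 68.1 to 106 CPM. Other neuronal clusters had lower levels of *Htr4*, at 38.9 and 45.9 CPM in neuron.2, 14.0 and 19.2 CPM in neuron.3, and 9.88 and 8.37 CPM in neuron.4, with intervals of the ratio that include 0. The part of neuronal nuclei with a UMI was 31.3% for WT and 35.9% for HET (5.39% and 6.57% after thinning), against 0.994% of non-neuronal nuclei (0.345% after thinning).

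*Htr7* (chr19:35958734-36057507), the other Gs-coupled receptor, known for roles in circadian timing and in the respiratory brainstem, was close to equal in the libraries. It had 3169 WT and 2889 HET UMIs, 45.1 and 43.7 CPM, with a ratio of −0.05 and an interval of −0.12 to 0.03. Its order of clusters by pooled level was neuron.2 at 60.4 CPM (54.1 to 67.2), neuron.1 at 56.8 CPM (55.3 to 58.4), then neuron.4 at 41.2 CPM (36.6 to 46.1) and neuron.8 at 40.9 CPM (31.4 to 52.4). Neighbours within each pair have overlapping intervals. In the HET library alone the first pair was in the other order, neuron.1 at 58.6 CPM (56.3 to 61.0) and neuron.2 at 53.4 CPM (43.7 to 64.6). Subcluster 14 of neuron.2, which also led *Htr1b* after neuron.7, was highest, with 78.1 CPM in the WT and 68.1 CPM in the HET library. In neuronal nuclei 29.5% had a UMI, against 1.19% of non-neuronal ones (4.78% and 0.387% after thinning).

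**Figure D4:**
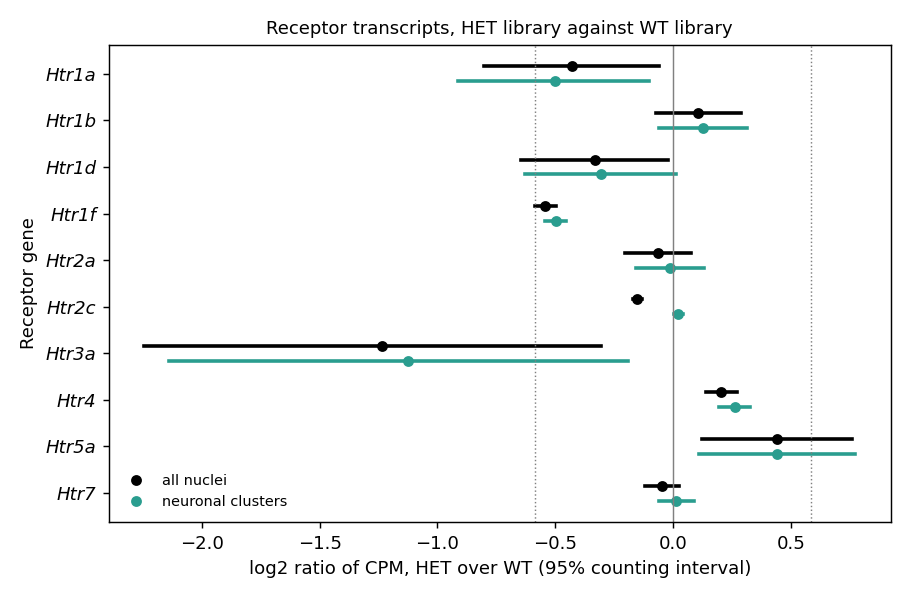
Log2 ratio of CPM, HET over WT (x axis), for each receptor (y axis) over all nuclei (black) and over neuronal clusters (green), with counting intervals at 95% and dotted lines at 1.5-fold. *Htr1f* lies at −0.54 and −0.50 and *Htr4* at 0.21 and 0.26, while *Htr2c* moves from −0.15 to 0.02 once only neuronal clusters are counted, and *Htr3a* alone lies past a dotted line.

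Across neuronal clusters, receptors were also compared by transmitter, with at least 5 UMIs of one class and 5 times those of the other. This kept 359 glutamatergic nuclei (134 WT and 225 HET) and 1892 inhibitory ones (1107 and 785). *Htr2c* stood at 387 CPM in glutamatergic and 996 CPM in inhibitory nuclei, a log2 ratio of 1.36, inhibitory over glutamatergic (1.31 to 1.42). The order was the same in the WT library, at 427 and 995 CPM, and in the HET library, at 357 and 999 CPM. Within neuron.1 alone (203 and 1743 nuclei) it was 608 and 1063 CPM, a ratio of 0.81 (0.74 to 0.87). Nuclei with strict glycinergic markers had 1115 CPM of *Htr2c* in the WT and 1052 CPM in the HET library.

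*Htr2a*, *Htr1b* and *Htr7* were likewise higher in inhibitory nuclei of neuron.1, by ratios of 0.82 (0.31 to 1.37), 0.76 (0.10 to 1.50) and 0.36 (0.15 to 0.59). Within single libraries the interval included 0 for *Htr2a* in the WT (0.74, −0.04 to 1.63) and for *Htr1b* in the HET library (0.29, −0.51 to 1.19). *Htr4* and *Htr1f* differed over all neuronal clusters, both by 0.49, but within neuron.1 their ratios were −0.12 (−0.28 to 0.04) and 0.12 (−0.01 to 0.24). Inhibitory levels over all neuronal clusters were 82.2 CPM for *Htr4* and 167 CPM for *Htr1f*, against 58.5 and 119 CPM in glutamatergic nuclei. For *Htr1f* the libraries differed within neuron.1, with a ratio of −0.14 (−0.30 to 0.03) in the WT and 0.33 (0.14 to 0.52) in the HET library.

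**Figure D5:**
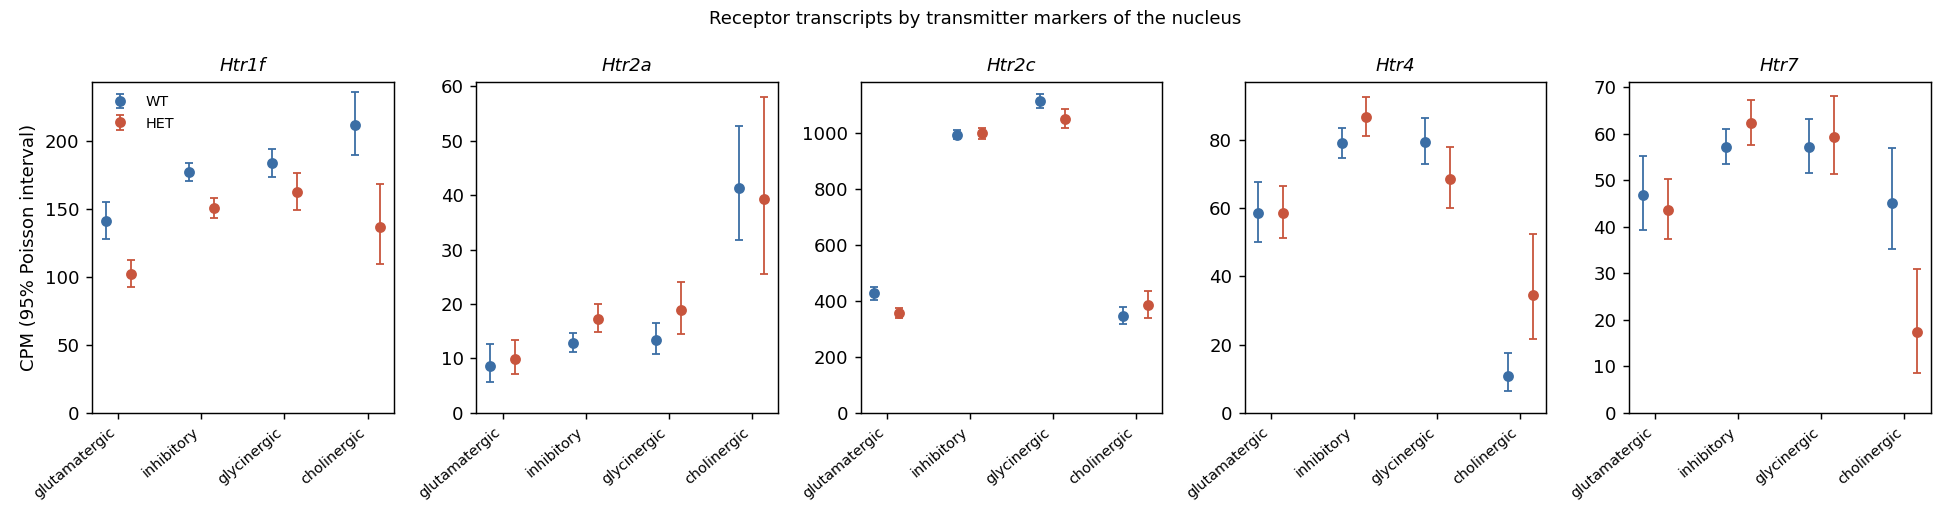
CPM (y axis, linear, from 0, own scale per panel) of *Htr1f*, *Htr2a*, *Htr2c*, *Htr4* and *Htr7* in neuronal nuclei of each transmitter class (x axis) in the WT (blue) and HET (red) library, with exact Poisson 95% intervals. *Htr2c* stands highest in inhibitory and glycinergic nuclei (995 and 999 CPM in the former) and *Htr2a* is highest in cholinergic nuclei, at 41.3 and 39.3 CPM. The cholinergic class holds 57 nuclei of neuron.1 and 44 of neuron.8.

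Any of the 10 receptors was seen in 89.2% of neuronal nuclei, and 3 or more in 36.4%, against 29.1% and 0.122% of non-neuronal nuclei at their lower depth. Neuronal nuclei with at least 20 UMIs of *Htr2c* (1183, at a median depth of 14054 UMIs) had 96.8 CPM of *Htr4*, against 45.0 CPM in the 3767 nuclei with none (6729 UMIs). The same nuclei had 65.3 CPM of *Htr7* against 42.5 CPM and 157 CPM of *Htr1f* against 124 CPM. These are descriptions over nuclei of the same libraries. Of the rich nuclei 1147 came from neuron.1, against 2249 of the 3767 with none, and neuron.1 held 93.5% of the UMIs of *Htr4*. The part of cluster make-up in these differences was not tested.

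Over the 34 subclusters, which share libraries, Pearson's r of log2(CPM + 1) between *Htr4* and *Htr7* was 0.80, the highest among pairs of the 10, followed by *Htr1f* and *Htr7* at 0.69 and *Htr2c* and *Htr4* at 0.62. Among 16347 genes, *Htr7* was most like *Gm48893* (0.94), *Fstl4* (0.92) and *Ubap1l* (0.91), and *Htr4* was most like *Fstl4* (0.81), *Htr7* (0.80) and *Zfp804b* (0.79). For *Htr1f* the closest were *Pdcd7* (0.83), *Mblac2* and *Klhl10* (both 0.82), and for *Htr5a* they were *Kpna3* (0.83), *Arhgef7* (0.81) and *Hectd4* (0.80). *Htr1b* was closest to *Gm26907* and the overlapping *D430036J16Rik* (both 0.78), then *Inpp5k* (0.72), and *Htr1d* to *Mmp16* (0.76), *Taf1d* and *Oprk1* (both 0.73). *Htr2a* was closest to *Shoc1* (0.78), *Mettl18* (0.75) and *Qtrt1* (0.74), and *Htr2c* to *Nub1* (0.78), *Gm29724* (0.77) and *Gm14051* (0.75). The sparse genes had the lowest values, with *Qrfprl* (0.69), *Gm16263* (0.66) and *Gm31938* (0.63) for *Htr3a*, and *Fbxo11* (0.59), *Gpc3* and *Ube2v1* (both 0.58) for *Htr1a*.

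The 4 receptor genes outside the list included *Htr5b*, with 217 WT and 25 HET UMIs (log2 ratio −3.03), itself an inferior olive marker of neuron.6. *Htr2b* had 2720 and 3613 UMIs (0.50), and overlaps *Psmd1* on the opposite strand. *Htr6* and *Htr3b* had 100 and 11 UMIs over both libraries. Among 13 tested genes for the synthesis, transport and identity of serotonin neurons, 1 was at least 1.5-fold higher (*Tph2*, 489 and 810 UMIs, 0.82) and 3 were lower, *Gch1* (−0.71), *Gata2* (−0.59) and *Fev* with 26 and 12 UMIs, against 10.9% higher and 15.3% lower of all genes. Among 27 effector genes, none was higher and 4 were lower, set against the same shares. These were the G protein subunit genes *Gnai2* (−0.61) and *Gna11* (−0.73), the signalling regulator *Rgs4* (−0.81), and *S100a10* (−0.95), whose product binds some serotonin receptors. The median log2 ratio was −0.08 for the first list, 0.03 for the effectors and −0.11 for the 10 receptors, against −0.10 for all genes with at least 200 UMIs.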

How the data were processed

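The authors made 10x Chromium 3′ v3.1 libraries, aligned them with Cell Ranger (version not given in the sources used here) to mm10, and filtered nuclei and listed genes in Seurat 4.1. The deposited counts are raw UMIs per gene and nucleus, not normalized. The authors also deposited mitochondrial, ribosomal and hemoglobin percent values, a doublet score from a caller not given in the sources used here, 2 cell labels and a subcluster number. Every nucleus was listed as a singlet, and no further doublet removal was made.

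Clusters were used as deposited. UMIs were summed per library and scope and divided by that scope's total (CPM). Ratios carry exact conditional binomial intervals, levels exact Poisson and shares exact Clopper-Pearson intervals, all at 95%, and a share of 0 is limited at 3 counts of the total. Clusters needed at least 30 nuclei per library, and genes were counted as apart at 1.5-fold with at least 20 UMIs over both. Thinned shares are expected shares when 1000 UMIs are drawn per nucleus. Gene positions came from GENCODE vM21 and promoters from RefSeq. The promoter table matched 8 of the 10 receptors, all but *Htr3a* and *Htr4*. All 10 receptors are named, as are the other 4 receptor genes, pathway genes at least 1.5-fold apart with at least 200 UMIs, and the 3 genes most like each receptor over 34 subclusters. *Fev*, below that minimum, was named after its values were seen, as were single clusters. Genes and lists were chosen with earlier results of these data known. No leave-one-out was possible with 1 library per genotype. The pipeline was tested on simulated data. Computation used numpy 2.4.6, scipy 1.17.1, pandas 2.3.3 and matplotlib 3.10.9 under Python 3.11.15.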

Additional observations from a re-analysis of the deposited data

Results flagged for a closer look

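The log2 ratio of *Htr2c*, HET over WT, had opposite signs in different clusters with counting intervals clear of 0. It was 2.35 in endo and 0.61 in neuron.7, but −0.91 in neuron.3. Without the richest nucleus of each library these were 1.65, 0.45 and −0.80. In neuron.7 the interval then included 0 (−0.18 to 1.08). Among endo nuclei whose second label is also endothelial, the ratio was 0.88 (−0.45 to 2.11). Subcluster 27, mainly of neuron.3, held 14 WT and 100 HET nuclei, and its part in the neuron.3 ratio was not tested. Each cluster had 1 library per genotype, so the difference between clusters was not tested.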

How the results depend on the processing

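No paired analysis was possible with 1 mouse per genotype. Over all nuclei, *Htr1a*, *Htr1b*, *Htr1d*, *Htr1f*, *Htr3a*, *Htr4* and *Htr5a* kept their sign under all 9 alternatives, *Htr2c* under 8, *Htr7* under 7 and *Htr2a* under 5. Relative to genes of the same length decile, the ratios were −0.13 for *Htr1a*, 0.41 for *Htr1b*, −0.17 for *Htr1d*, −0.66 for *Htr1f*, −0.27 for *Htr2c* and 0.0865 for *Htr4*. In that setting 1 receptor was called higher and 2 lower, and the matching share of all genes is not given here. With equal cluster weights the ratios were −0.45 for *Htr1f*, 0.20 for *Htr2a*, 0.15 for *Htr2c*, 0.39 for *Htr4* and 0.0698 for *Htr7*. With the median of all genes set to 0 they were −0.44 for *Htr1f*, −0.0481 for *Htr2c*, 0.31 for *Htr4* and 0.0570 for *Htr7*. The mean over nuclei of CPM gave −0.60 for *Htr1f* and −0.32 for *Htr2c*, with 2 receptors lower and again no matching share of all genes. Without clusters drawn mostly from 1 library, *Htr2a* was 0.17 and *Htr2c* −0.0615. Without the 5% highest doublet scores, *Htr2c* was −0.0622 and *Htr4* 0.27. Of the choices made after the data were seen, leaving out epend.2 gave −0.0385 for *Htr2c*, and leaving out neuron.6 and neuron.8 gave 0.16 for *Htr2a* and −0.20 for *Htr2c*. Over neuronal clusters, equal weights gave −0.44 for *Htr1f*, 0.20 for *Htr2a*, 0.12 for *Htr2c* and 0.38 for *Htr4*, and a median set to 0 gave −0.40, 0.12 for *Htr2c*, 0.36 for *Htr4* and 0.11 for *Htr7*. The cause of these shifts was not tested. Receptors with under 20 UMIs in a cluster could not be compared there, and counting intervals do not cover differences between animals.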

Other observations

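In the strictly cholinergic nuclei, the 2 Gs-coupled receptor genes took opposite directions. *Htr4* had 11.0 CPM in 63 WT and 34.6 CPM in 38 HET nuclei, on 17 and 22 UMIs (log2 ratio 1.66, 0.68 to 2.66). *Htr7* had 45.1 and 17.3 CPM in these nuclei, on 70 and 11 UMIs (−1.38, −2.45 to −0.46). *Htr1f* had 212 and 137 CPM there, and *Htr2c* 347 and 386 CPM. These nuclei lie in neuron.1 (57) and neuron.8 (44). The whole of neuron.8 has 53 nuclei, 44 WT and 9 HET, so at most 9 of its 44 nuclei in the class can be HET. The WT and HET nuclei of the class thus differ in cluster make-up, and the part of this in the ratios was not tested. No UMI of *Htr1a* was seen in the cholinergic nuclei, a class added after the data were seen.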
